A study of Homo sapiens with 4 samples.

Results

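The distal part of the long arm of chromosome 15 was described here as a block of neighbouring genes whose reads shifted together between libraries. The block begins at position 50424380 (hg38), the start of USP8, and runs to the last measured gene, TARS3 (TARSL2 in the deposited tables), which ends at 101724604. Its members were the genes in this interval with at least 100 exonic reads in each of 4 libraries. They numbered 205, of 43622 rows in each table and of 979 rows in the interval. For comparison, 100 genes of chromosome 15 on the centromere side of the block and 8879 genes of the other autosomes passed the same minimum of reads.

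The libraries came from A549 and NCI-H1993 (H1993), established human lung adenocarcinoma cell lines. Each line was grown adherent, attached to the dish, and as spheroids, which float and are grown to select for stem-like cells. A single library, 1 per group, stood for each combination (A549 adherent, A549 spheroid, H1993 adherent, H1993 spheroid), and the labels of these 4 libraries name no further agent. The study compared triacylglycerol synthesis between adherent and spheroid culture.

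Tumour cell lines carry gains and losses of long chromosome segments. A lost or gained segment changes the number of templates for many neighbouring genes at once, so that their transcripts tend to shift by a similar factor whatever the genes do. Single genes can depart from the shift through their own regulation. DNA copy number was not measured in the files used here, so the values below are levels of RNA along the chromosome.

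The libraries held between 15331121 and 17681746 exonic reads. The library labelled H1993 adherent did not sit with its label. Across 9184 autosomal genes, which are not independent replicates, its log2 levels correlated more closely with adherent A549 (Pearson 0.951) than with H1993 spheroids (0.784). CDKN2A, a tumour suppressor gene on another chromosome, had 0 reads in both A549 libraries, 75 in the library labelled H1993 adherent, with 308 in H1993 spheroids. Whether this library was exchanged with another or holds a mixture of both lines was not tested and cannot be told apart here, so a ratio with it need not compare H1993 cells. For this reason the results are given against A549 with that library and with H1993 spheroids separately. The epithelial keratins KRT8 and KRT18 were abundant (at least 1854 and 1068 CPM, which are counts per library size after TMM scaling). EPCAM, also on the epithelial list, ran from 15.3 CPM in the library labelled H1993 adherent to 308 CPM in H1993 spheroids. The sum of that list thus comes mostly from keratins. The lung markers NKX2-1 and SFTPB reached at most 0.849 and 0.131 CPM. Summed fibroblast (13.1 to 46.8 CPM), blood (3.25 to 12.4 CPM) and endothelial markers (0.691 to 7.82 CPM) stayed far under the 4188 to 11462 CPM of the epithelial list.

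The members include genes at the edge of the block and genes that departed most from it. The 250 bases before the RefSeq start (GRCh38.p14) are shown for USP8, the first member (chr15:50424155-50424404, plus strand), NEO1, the abundant member lowest in the library labelled H1993 adherent relative to A549 adherent cells (chr15:73051652-73051901, plus), FURIN, the highest in that ratio (chr15:90871290-90871539, plus), and SKIC8, the steadiest over the 4 libraries (chr15:78299610-78299859, minus). Capitals mark CpG dinucleotides (CG), which read the same on both strands. RefSeq starts need not be the gene starts of the deposited tables.
USP8: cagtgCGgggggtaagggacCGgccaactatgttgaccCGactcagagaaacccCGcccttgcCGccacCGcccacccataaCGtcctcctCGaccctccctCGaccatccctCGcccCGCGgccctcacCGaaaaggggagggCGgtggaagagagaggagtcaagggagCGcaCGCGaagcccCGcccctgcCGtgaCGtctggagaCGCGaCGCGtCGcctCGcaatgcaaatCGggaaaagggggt
NEO1: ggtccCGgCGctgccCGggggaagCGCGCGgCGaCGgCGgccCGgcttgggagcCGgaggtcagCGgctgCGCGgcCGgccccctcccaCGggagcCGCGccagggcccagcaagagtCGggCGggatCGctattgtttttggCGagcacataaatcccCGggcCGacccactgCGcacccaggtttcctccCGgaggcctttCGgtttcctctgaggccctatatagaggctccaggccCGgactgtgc
FURIN: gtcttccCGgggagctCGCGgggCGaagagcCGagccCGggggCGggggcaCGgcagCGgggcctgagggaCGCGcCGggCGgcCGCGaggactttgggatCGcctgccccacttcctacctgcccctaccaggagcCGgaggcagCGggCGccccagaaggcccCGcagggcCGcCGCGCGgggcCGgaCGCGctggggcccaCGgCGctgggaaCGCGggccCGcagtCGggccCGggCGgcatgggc
SKIC8: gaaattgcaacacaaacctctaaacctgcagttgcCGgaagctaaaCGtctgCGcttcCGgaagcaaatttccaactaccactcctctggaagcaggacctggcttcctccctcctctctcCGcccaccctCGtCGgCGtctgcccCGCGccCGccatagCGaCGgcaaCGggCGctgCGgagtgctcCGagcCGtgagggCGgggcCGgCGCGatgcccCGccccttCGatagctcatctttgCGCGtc
The 4 runs held 27, 28, 35 and 26 CpG in that order. Not all members with extreme ratios had as many: over the full RefSeq windows, NEDD4 had 2, GCNT3 had 3, WDR72 had 1 and IDH2 had 6. Of the 205 members, 188 had a promoter in the RefSeq table. Over these windows, which also take in the first bases of each transcript, the matched members had a median of 30 CpG, against 14 over the 27326 promoters of the table. At least 10 CpG were found in 91.0% of the members' windows and in 56.0% of all windows of that length. The members had passed a minimum of reads in each library, and the promoters of the table had not. No promoters of other genes with that minimum were compared, so these values do not set the block apart.

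The members took a smaller share of all reads in the libraries labelled H1993. They made up 2.79% of exonic reads in adherent A549, 2.70% in spheroid A549, 2.24% in the library labelled H1993 adherent, with 1.54% in H1993 spheroids. Both A549 libraries were high, H1993 spheroids were lowest and the library labelled H1993 adherent lay between them. The genes of chromosome 15 before the block took 0.695%, 0.705%, 0.737% and 0.648% of reads in that order.

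The medians over genes followed the same order, although only 88 of the 205 members showed it singly. Relative to A549 adherent cells, the median member stood at 100.4% in spheroid A549, 79.8% in the library labelled H1993 adherent, with 61.6% in H1993 spheroids. The median gene of the other autosomes stood at 96.5%, 98.2% and 103.8%. With 1 library per group these differences have no replicate check, and in bulk RNA fewer cells of a kind and less RNA per cell cannot be told apart.

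The block was noticed in the ratios between these libraries and was thus chosen by its ratios of reads. The ratios of all pairs therefore describe the members and are given with no test. The first is that of the library labelled H1993 adherent to A549 adherent cells (the adherent pair). The median log2 ratio was -0.32 over the block, -0.01 over the rest of chromosome 15 and -0.03 over the other autosomes. Of 205 members, 161 (78.5%) were below 0, against 53.9 percent of all 9184 autosomal genes. At least 2-fold lower were 10 members (1.92 percent of all genes) and at least 2-fold higher were 0 (2.05 percent). The middle 50% of members lay between -0.49 and -0.07.

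The ratio of H1993 spheroids to A549 spheroids (the spheroid pair) shares no library with the first. It too was among the ratios in which the block was noticed. The members were further apart in it. Their median log2 ratio was -0.69, against -0.10 over the rest of chromosome 15 and 0.10 over the other autosomes. Below 0 were 177 members (86.3%), where 45.9 percent of all genes were. By at least 2-fold, 59 members were lower (11.5 percent of all genes) and 9 higher (14.3 percent). Below 0 in both of these ratios were 140 members (68.3%), against 24.3 percent of all genes. Across the 205 members the sizes of these ratios had a Pearson correlation of 0.05, and of 0.02 over all autosomal genes, as a description over genes of the same libraries.

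Within lines, the cultures of A549 showed no common shift of the block. The median log2 ratio of A549 spheroids to A549 adherent cells was 0.01 over the members and -0.05 over the other autosomes, and 102 members (49.8%) were below 0, where 53.5 percent of all genes were. Single members moved in this pair, with 17 at least 2-fold lower (6.5 percent of all genes) and 11 at least 2-fold higher (6.77 percent). In the H1993 pair as labelled, the median was -0.39 over the members and 0.08 over the other autosomes, with 156 members (76.1%) below 0 against 46.4 percent of all genes. Here 39 members were at least 2-fold lower (10.2 percent of all genes) and 7 higher (13 percent). Set against adherent A549, H1993 spheroids differ by line and by culture. The median there was -0.70, and 175 members (85.4%) were below 0 (48.3 percent of all genes). At least 2-fold lower were 67 members (10.8 percent of all genes), and 5 were at least 2-fold higher (13.2 percent).

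**Figure D1:**
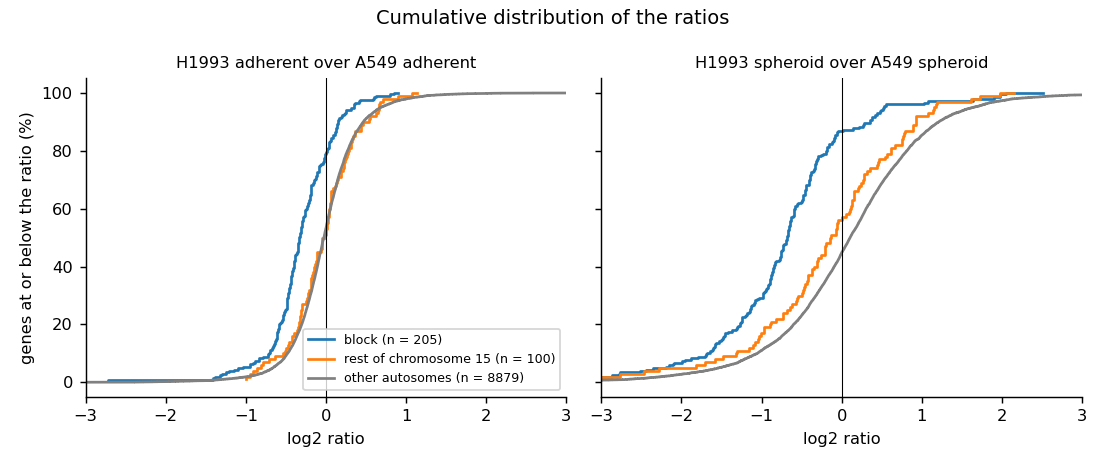
Cumulative share of genes (vertical axis, percent) at or below each log2 ratio (horizontal axis) for the 205 block members, the 100 other genes of chromosome 15 and 8879 genes of the other autosomes. The block curve is displaced to the left in both panels, with 78.5% of members below 0 on the left and 86.3% on the right.

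The order of the 4 libraries was counted per gene. In 107 of 205 members both libraries labelled H1993 were below both A549 libraries, an order found in 12.8 percent of all autosomal genes. In 88 members H1993 spheroids were also below the library labelled H1993 adherent (9.6 percent of all genes). The opposite order, both above both A549 libraries, was found in 5 members (14.1 percent of all genes). H1993 spheroids had the lowest level of the 4 libraries in 143 members (31.6 percent of all genes).

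No other autosome had a median as low as the block in the ratios that involve H1993 spheroids. Against A549 spheroids the medians of the 21 other autosomes ran from -0.20 (chromosome 14) to 0.79 (chromosome 18), and against A549 adherent cells from -0.30 (chromosome 13) to 0.74 (chromosome 18). In the adherent pair the range was -0.37 to 0.08, and chromosome 9, at the low end, lay below the block. In the A549 pair the other autosomes ran from -0.16 to 0.01, close to the block. The block is a stretch chosen by its ratios and the others are whole chromosomes, so its low place was partly set by that choice. Chromosome 15 as a whole stood at -0.56 in the spheroid pair and -0.28 in the H1993 pair as labelled. For H1993 spheroids over A549 adherent cells it stood at -0.54. In these pairs it was the lowest autosome. In the adherent pair it stood at -0.23, above chromosomes 9 (-0.37) and 17 (-0.24).

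**Figure D2:**
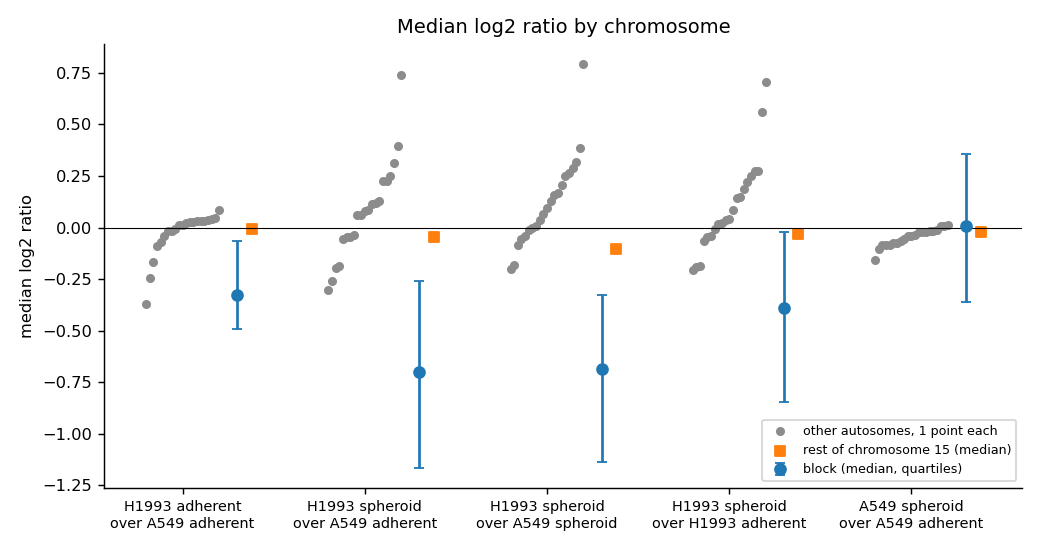
Median log2 ratio (vertical axis) in 5 pairs of libraries (horizontal axis, labels as deposited). Grey points are the 21 other autosomes, the blue point and bar are the median and quartiles of the 205 block members, and the orange square is the rest of chromosome 15. The block lies under the grey points in the 3 pairs with H1993 spheroids and among them in the A549 pair. It is a stretch chosen by its ratios, whereas the grey points are whole chromosomes.

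Along the block the shift was present in most bins of 5 Mb. Between H1993 spheroids and A549 spheroids all 11 bin medians were below 0, from -1.26 (14 genes from 85 to 90 Mb) to -0.18 (5 genes from 95 to 100 Mb). In the adherent pair 10 of 11 were below 0, the lowest at -0.51 (16 genes from USP8 to WDR72). In the A549 pair 5 of 11 were below 0, from -0.51 (again the 5 genes from 95 to 100 Mb) to 0.18.

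The bin from 70 to 75 Mb went apart from its neighbours in the adherent pair. Its 27 genes, from TLE3 to SCAMP5, had a median of 0.05 in that pair, with 13 below 0. The same genes stood at -0.73 between the spheroid libraries and at 0.04 in the A549 pair. HEXA, the lysosomal hexosaminidase subunit alpha, is an example chosen after its values were seen, with 1770 reads in adherent A549, 2893 in spheroid A549, 2464 in the library labelled H1993 adherent, with 961 in H1993 spheroids. Its log2 ratio was 0.35 between the adherent libraries and -1.47 between the spheroid libraries. UACA and NEO1, in the same bin, stood at -1.29 and -1.41 between the adherent libraries, so the bin was mixed.

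The place of the edge differed between pairs. The single step along chromosome 15 that left the smallest summed deviation from the medians on its sides fell between DTWD1 (start 49620980) and SLC27A2 (start 50182196) for the library labelled H1993 adherent over A549 adherent cells, with medians of -0.00 before and -0.33 after it. For H1993 spheroids over A549 adherent cells, which shares the A549 library, the step fell at the same place (0.00 before and -0.71 after). Between the spheroid libraries it fell slightly earlier, between COPS2 (start 49106068) and GALK2 (start 49155656). In the A549 pair the best step removed 0.711% of the summed deviation, against 7.02% in the adherent pair and 7.51% in the spheroid pair.

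At the edge itself, the 10 genes before USP8 had a median of 0.17 between the adherent libraries with 3 below 0, and the first 10 members had a median of -0.56 with 9 below 0. Between the spheroid libraries the same genes had medians of -0.73 and -0.82, so there was no clear step at USP8 in that pair. USP8, a deubiquitinase of endosomes, stood at 98.5 CPM in adherent A549, 97.8 in spheroid A549, 73.4 in the library labelled H1993 adherent, with 57.4 in H1993 spheroids. TRPM7, an ion channel fused to a kinase, followed the same order at 107, 89.2, 74.7 and 48.6 CPM. SPPL2A, an intramembrane protease and the third member, did not, at 114, 109, 118 and 40.9 CPM. It was low in H1993 spheroids and level with A549 in the library labelled H1993 adherent.

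The rest of chromosome 15 was not uniform. Its 33 genes with a start below 35 Mb, a limit chosen after the values were seen, had medians of -0.22 between the adherent libraries and -0.56 between the spheroid libraries. The 67 genes from 35 Mb to the block stood at 0.05 and 0.15. Of these, the 12 genes from 45 to 50 Mb stood at 0.22 between the adherent libraries. Between the spheroid libraries the same 12 stood at -0.28, with 9 below 0. The stretch without the shift thus lay in the middle of the chromosome and ended before the block in the spheroid pair. The comparison with the whole of the rest averages stretches with and without the shift.

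**Figure D3:**
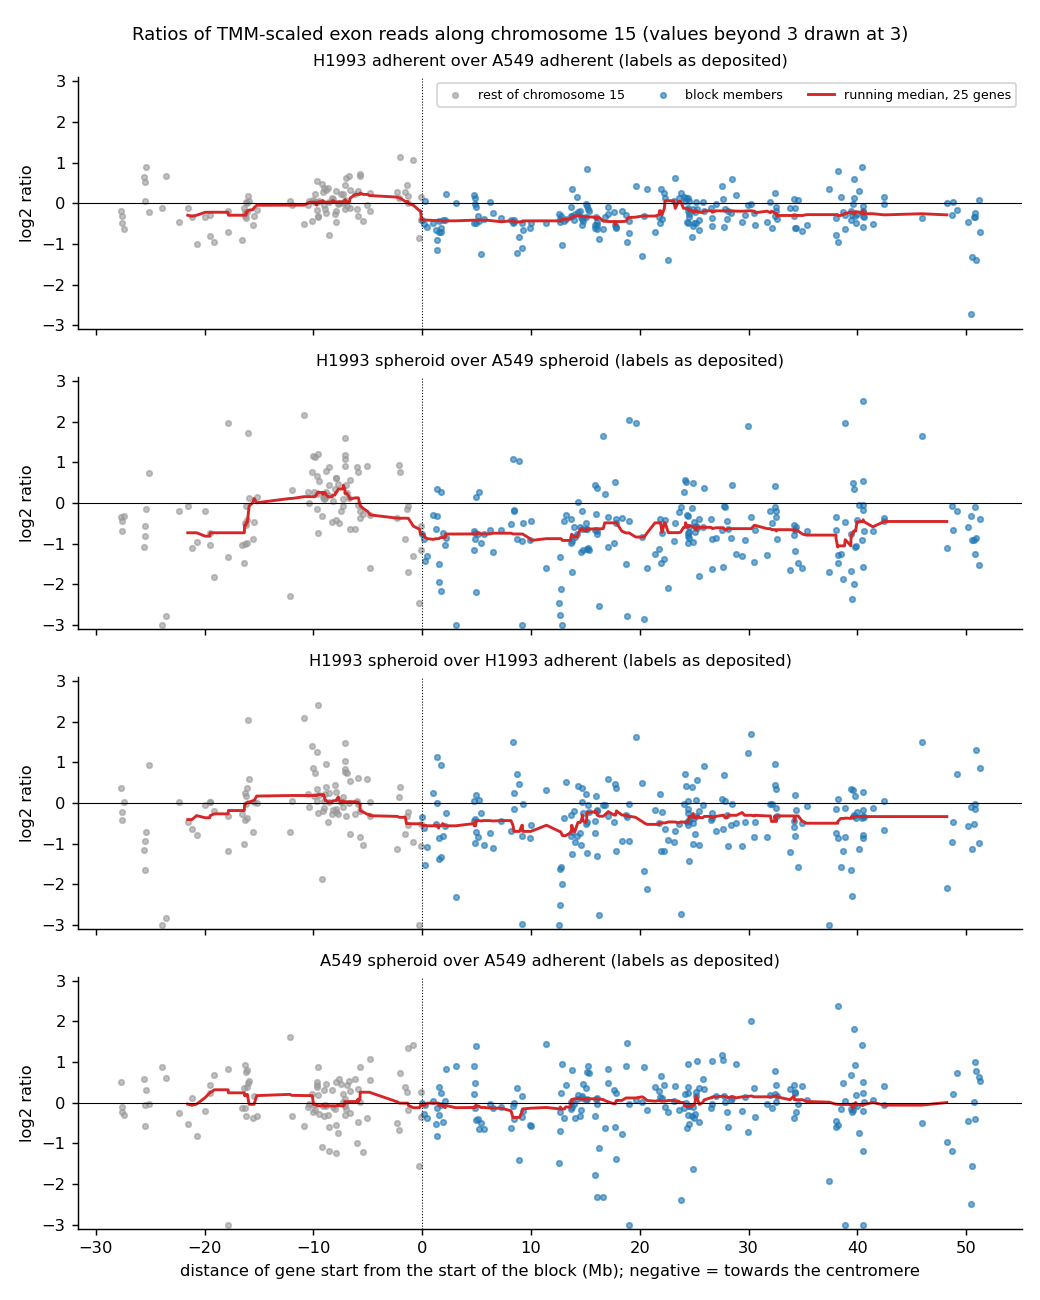
Log2 ratio of each gene of chromosome 15 (vertical axis, values beyond 3 drawn at 3) against the distance of its start from the start of the block in Mb (horizontal axis), in 4 pairs of libraries. Blue points are block members, grey points the rest of the chromosome and the red line a running median of 25 genes, which drops near distance 0 in the top panel and runs between -0.36 and 0.32 in the bottom panel (the A549 pair).

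Other reads of the same interval were counted separately. Intronic reads, which come largely from RNA not yet spliced, were sufficient (at least 30 in each library) in 134 members. Their median log2 ratio between the adherent libraries was -0.22, against 0.10 over 56 genes of the rest of chromosome 15 and 0.07 over 5949 genes of the other autosomes. In the spheroid pair it was -0.30, 0.09 and 0.44 in that order. Intronic reads shifted as a whole in the A549 pair, with -0.33 over the block, -0.22 over the rest of chromosome 15 and -0.35 over the other autosomes. The block was thus level with the other autosomes there but lower than the rest of chromosome 15.

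Rows of the interval that missed the minimum of reads were not used to choose the block. In 401 rows with fewer than 100 reads in at least 1 library, pooled reads numbered 14664 in A549 adherent cells and 13408 in the library labelled H1993 adherent, a log2 ratio of -0.26 (95% exact Clopper-Pearson interval -0.29 to -0.22, counting error only). The same pool stood at 0.03 over the rest of chromosome 15 and at -0.10 over the other autosomes. The 341 rows with fewer than 100 reads in every library held 2676 of the 14664 reads in A549 adherent cells. Their ratio was -0.15 (-0.22 to -0.07), against 0.01 and 0.12. Counted row by row, 85 rows with a mean of 10 to 99 reads had a median of 0.00 in that pair, where 57 such rows of the rest of chromosome 15 had 0.05 and 3819 of the other autosomes had 0.17. Between the spheroid libraries the medians were -0.73, -0.69 and -0.09 in that order. Row by row, low rows of the block were thus below those of the other autosomes but close to those of the rest of chromosome 15.

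At the minimum itself, PEX11A, LINS1, PPCDC, ARID3B and STOML1 lay just outside with 94, 95, 96, 98 and 99 reads in their lowest library. Their log2 ratios between the adherent libraries were 0.995, -0.38, -0.63, 0.28 and -0.31. KLHL25, TIPIN, GOLGA6L4, FAM81A and NTRK3 lay just inside with 100, 102, 110, 111 and 111 reads. Their ratios were -0.55, -0.61, -0.11, -0.84 and 0.35, so both signs occurred on either side of the minimum.

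The members were also split by level, length, promoter and strand. In tertiles by mean CPM the median ratio between the adherent libraries was -0.30 in the lowest, -0.34 in the middle and -0.34 in the highest. In tertiles by gene length it was -0.28, -0.35 and -0.33, and in tertiles by promoter CpG -0.32, -0.29 and -0.33. Genes on the plus strand (94) stood at -0.29 and those on the minus strand (111) at -0.35. The adherent pair thus differed little between these splits. In the spheroid pair the tertiles by mean CPM stood at -0.65, -0.64 and -0.88, and those by gene length at -0.64, -0.63 and -0.84. For H1993 spheroids over adherent A549 the tertiles by mean CPM stood at -0.49, -0.81 and -0.79, so the least abundant members were shifted less there.

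The roles of the members differ widely. A set of 9 role lists held 100 of the 205 members, and the 105 in no list had medians of -0.30 between the adherent and -0.67 between the spheroid libraries, near those of all members. Beside each list below, the values over all members are -0.32 and -0.69, and over all autosomal genes -0.03 and 0.09.

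Of 13 members on the list for the ribosome, the proteasome and RNA processing, 11 were below 0 between the adherent libraries (median -0.44) and 13 between the spheroid libraries (median -0.63). The list also held PPIB, a protein-folding enzyme of the secretory pathway rather than of these classes. PPIB was its highest member between the adherent libraries, at 0.36. RPL4, a protein of the large ribosomal subunit (ENSG00000174444, 66498015 to 66524532), had 1924 CPM in adherent A549, 2090 in spheroid A549, 1408 in the library labelled H1993 adherent, with 1241 in H1993 spheroids. RPLP1, of the ribosomal stalk (ENSG00000137818), had 801.5, 787.5, 589.7 and 576.4 CPM. In both genes the A549 libraries were high and close together and both libraries labelled H1993 were low and close together, without overlap.

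Genes of the same complexes on other autosomes were set beside these members. Between the adherent libraries RPL4 and RPLP1 stood at -0.45 and -0.44 on the log2 scale, and 70 cytosolic ribosomal protein genes on other autosomes had a median of -0.13 (quartiles -0.27 and -0.06). Lower than RPLP1 were 6 of the 70. In the spheroid pair RPL4 stood at -0.75 and RPLP1 at -0.45, and the 70 had a median of 0.11 with 7 below RPLP1. COX5A, a subunit of cytochrome c oxidase, was at -0.35 and 9 subunits elsewhere had a median of 0.06, the lowest at -0.30. Between the spheroid libraries it was at -0.72 and those subunits at -0.46. In the adherent pair MRPL46 and MRPS11, of the mitochondrial ribosome, were at -0.78 and -0.38, and 73 genes of that complex elsewhere had a median of -0.11. In the spheroid pair they were at -0.34 and -0.66, against a median of 0.35. PSMA4 of the proteasome, at -0.19 in the adherent pair, was less apart from 32 subunits elsewhere (median -0.00), 8 of which were lower. In the spheroid pair it was at -0.63, against a median of 0.21, and 2 of the 32 were lower. Ribosomal protein genes have processed copies in the genome that can share reads, and the families were chosen after values of the members were seen.

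Of 11 mitochondrial members, 9 were below 0 between the adherent libraries (median -0.35) and 10 between the spheroid libraries (median -0.60). COX5A had 133 CPM in adherent A549, 126 in spheroid A549, 104 in the library labelled H1993 adherent, with 76.8 in H1993 spheroids. ETFA, which passes electrons from fatty acid oxidation to the respiratory chain, had 209, 313, 213 and 207 CPM and so was high in A549 spheroids alone. IDH2, the mitochondrial NADP-dependent isocitrate dehydrogenase, went the other way with 43.7, 42.4, 66.2 and 54.0 CPM.

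All 7 members of the list for genome maintenance and cell division were below 0 between the adherent libraries (-0.95 to -0.48, median -0.63). The spheroid pair went the other way, with 2 of 7 below 0 and a median of 0.44, where all members had -0.69. PRC1, which bundles microtubules of the dividing cell (ENSG00000198901), had 3560 reads in adherent A549, 251 in spheroid A549, 2593 in the library labelled H1993 adherent, with 1325 in H1993 spheroids. KIF23, a motor of cytokinesis, had 2366, 188, 1568 and 720 reads, and FANCI, of the Fanconi anaemia repair pathway, had 2925, 279, 2065 and 1020. A549 spheroids were thus lowest, and between the spheroid libraries these 3 genes stood at 2.51, 2.04 and 1.98 on the log2 scale, the 3 highest abundant members of that ratio. The other 4 members of the list were TIPIN, ZWILCH, AEN and PARP6. BLM, TICRR, PIF1, CCNB2, PCLAF and NEIL1 lie in the interval and missed the minimum of reads.

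Actin, myosin and membrane scaffold genes were the lowest list in the adherent pair. Its 10 members were all below 0 there, with a median of -0.70. MYO1E, a myosin of membrane traffic (ENSG00000157483), had 362 CPM in adherent A549, 466 in spheroid A549, 156 in the library labelled H1993 adherent, with 254 in H1993 spheroids. ANXA2, a membrane-binding annexin and 1 of the 5 most abundant members (ENSG00000182718), had 2323, 1584, 1515 and 838 CPM. TPM1, a tropomyosin that lines actin filaments, had 428, 152, 355 and 27.7 CPM. Here TPM1 was low in both spheroid libraries while MYO1E was higher in them than in the matching adherent libraries.

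Of 12 members for signalling, 10 were below 0 between the adherent libraries (median -0.40) and 11 between the spheroid libraries (median -1.03). SMAD6, an inhibitor of BMP signalling, had 94.4 CPM in adherent A549, 43.3 in spheroid A549, 51.0 in the library labelled H1993 adherent, with 7.44 in H1993 spheroids. IGF1R, the receptor of insulin-like growth factor 1, had 210 CPM in both adherent libraries, 107 in A549 spheroids and 49.3 in H1993 spheroids. SMAD3, a transducer of TGF-beta, had 272, 54.4, 176 and 170 CPM, and was the list member that was higher in H1993 than in A549 spheroids, at 1.64 on the log2 scale (95% counting interval 1.53 to 1.76). NEO1, the receptor neogenin, had 119, 102, 44.8 and 23.9 CPM, the lowest ratio between the adherent libraries (-1.41, counting interval -1.53 to -1.29) among 154 members with a mean of at least 500 reads.

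Endosomal, lysosomal and secretory genes were shifted more between the spheroid libraries. Of 21 members, 15 were below 0 between the adherent libraries (median -0.19) and 20 between the spheroid libraries (median -0.85), and 8 of these were at least 2-fold lower. VPS13C, a lipid transfer protein at membrane contacts, had 121 CPM in adherent A549, 331 in spheroid A549, 87.0 in the library labelled H1993 adherent, with 109 in H1993 spheroids. It was highest in A549 spheroids and lowest in the library labelled H1993 adherent. Its log2 ratio between the adherent libraries was -0.48 (counting interval -0.58 to -0.38). CTSH, a lysosomal protease, outside the naming rule and named after its values were seen, was the 1 member above 0 between the spheroid libraries, at 0.43.

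Transcription and chromatin genes were the least shifted of the larger lists in the adherent pair and in the spheroid pair. Of 14 members, 10 were below 0 between the adherent libraries (median -0.10) and 11 between the spheroid libraries (median -0.42). For H1993 spheroids over A549 adherent cells their median was -0.70, the same as over all members. TLE3, a corepressor, had 24.8 CPM in adherent A549, 25.8 in spheroid A549, 33.0 in the library labelled H1993 adherent, with 102 in H1993 spheroids. NR2F2, the nuclear receptor COUP-TFII, had 51.7, 36.3, 40.3 and 113 CPM. Both were higher in H1993 spheroids than in the other 3 libraries, against the direction of the block.

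Proteases, secreted proteins and metabolic enzymes completed the lists. FURIN, which cleaves proproteins, had 79.3 CPM in adherent A549, 214 in spheroid A549, 148 in the library labelled H1993 adherent, with 114 in H1993 spheroids. At 0.90 it was the highest member between the adherent libraries. The lowest was ALDH1A3, an enzyme of retinoic acid synthesis, which falls under the mean of 500 reads and was named after its values were seen. It had 838, 153, 137 and 112 reads and stood at -2.72 in that pair, with A549 adherent cells high and the other libraries low. All 5 members of the protease list and all 7 of the metabolic list were below 0 between the spheroid libraries, with medians of -0.90 and -1.14. Between the adherent libraries 2 of 5 and 6 of 7 were, with medians of 0.16 and -0.34. PKM, the last enzyme of glycolysis and the most abundant member, had 3055 CPM in adherent A549, 3761 in spheroid A549, 2409 in the library labelled H1993 adherent, with 1712 in H1993 spheroids. GCNT3, which branches mucin glycans, had 147, 164, 68.4 and 8.55 CPM, the lowest abundant member between the spheroid libraries at -4.24. CA12, a carbonic anhydrase in none of the lists, had 677, 1312, 330.1 and 83.4 CPM and stood at -3.97.

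**Figure D4:**
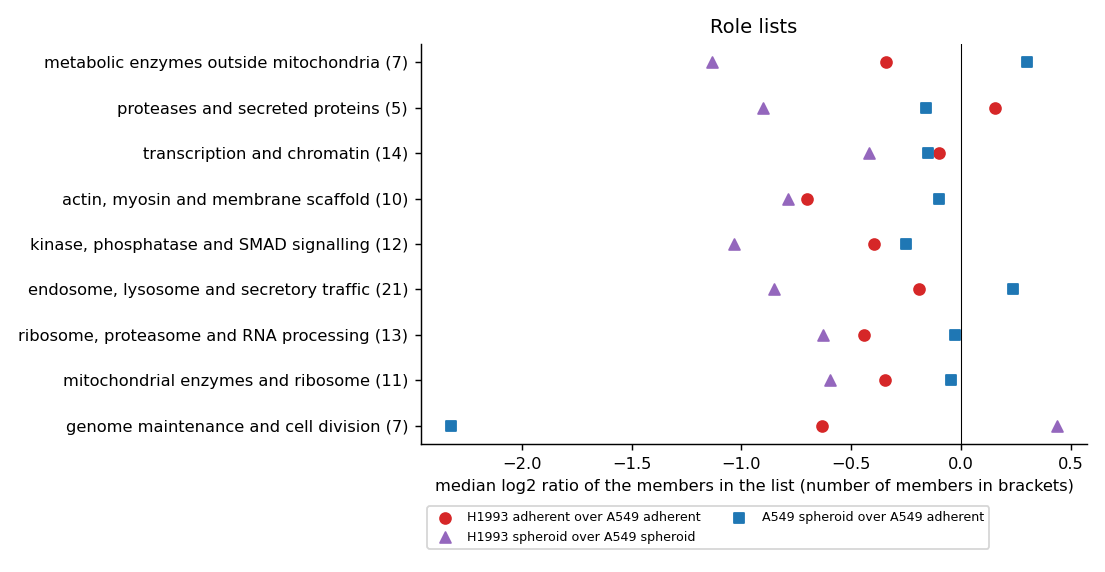
Median log2 ratio (horizontal axis) of the members of each role list (vertical axis, number of members in brackets) in 3 pairs of libraries. Circles (adherent libraries) lie left of 0 in 8 of 9 lists, triangles (spheroid libraries) in 8 of 9 and squares (the A549 pair) on both sides.

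The steadiest abundant members were SKIC8, MAN2A2 and RAMAC (FAM103A1). SKIC8 (WDR61 in the deposited tables), a scaffold of the Ski complex of RNA decay, had 66.2 CPM in adherent A549, 66.5 in spheroid A549, 59.5 in the library labelled H1993 adherent, with 61.8 in H1993 spheroids. Its ratio was -0.15 (counting interval -0.28 to -0.03) between the adherent and -0.10 (-0.23 to 0.02) between the spheroid libraries. MAN2A2, a mannosidase of the Golgi, had 72.7, 85.7, 69.1 and 82.8 CPM. At the far end of the chromosome, PCSK6, another proprotein convertase, had 27.0, 46.2, 10.2 and 25.5 CPM and TARS3, the last member, had 233, 355, 154 and 248 reads.

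**Figure D5:**
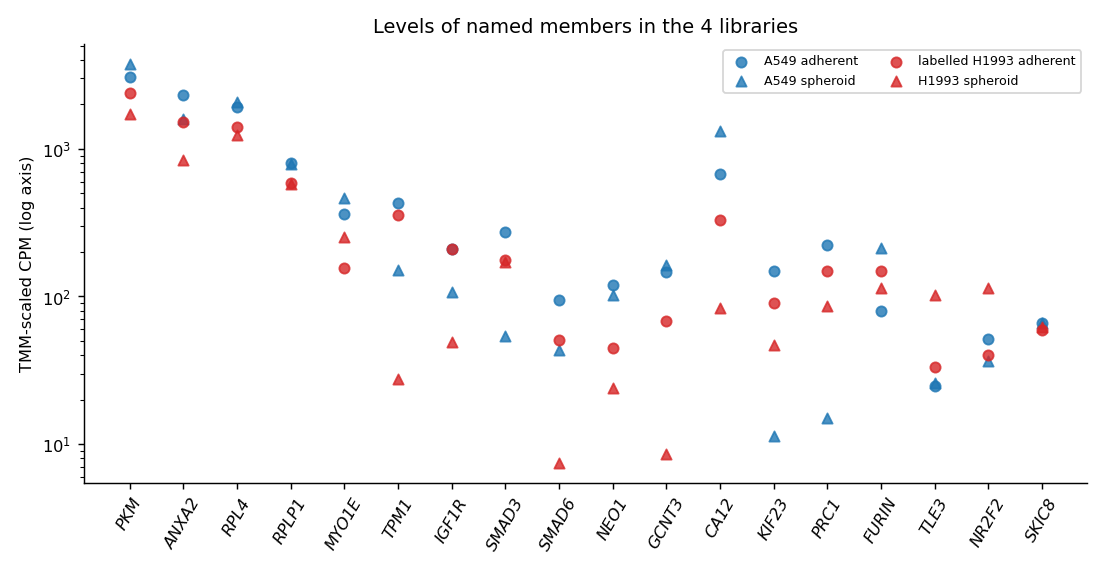
TMM-scaled CPM (vertical log axis) of members named in the text, in the 4 libraries. Blue symbols are A549 and red symbols the libraries labelled H1993, circles adherent and triangles spheroid. For PKM, RPL4 and RPLP1 the red symbols lie below the blue ones without overlap, whereas TLE3 and NR2F2 are highest in H1993 spheroids.

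A test of culture over both lines was possible with line as a second term, which leaves 1 residual degree of freedom. Members that it does not call are not shown to be unchanged. In edgeR's quasi-likelihood test, with Benjamini-Hochberg adjustment over 15273 genes, 0 of 205 members passed an adjusted p of 0.05 (0 percent of all genes in either direction). At an unadjusted p under 0.05, 13 members were lower in spheroids (3.54 percent of all genes) and 1 was higher (4.69 percent). DESeq2 with the same terms called 5 members lower (1.68 percent of all genes) and 1 higher (2.19 percent). Those lower were NTRK3, a neurotrophin receptor, STRA6, a retinol transporter, TPM1, KIF23 and PRC1, and ABHD17C, a depalmitoylase, was the higher one.

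The leading genes of this test are given by library. NTRK3 had 1443 reads in adherent A549, 396 in spheroid A549, 2018 in the library labelled H1993 adherent, with 111 in H1993 spheroids, and STRA6 had 1407, 278, 1822 and 241. Both were lower in the spheroid library of each label, without overlap. The adjusted p for STRA6 was 0.312 in edgeR and 0.00105 in DESeq2, and for NTRK3 it was 0.377 and 0.000933. ABHD17C had 485, 2042, 523 and 1488 reads, with an adjusted p of 0.385 in edgeR and 0.0395 in DESeq2. The library labelled H1993 adherent, which resembles adherent A549 more than H1993 spheroids, enters each of these values, and its part in them was not tested.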

How the data were processed

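Total RNA of 4 samples was sequenced with a stranded mRNA kit, per the labels' protocols. Per the submitters' processing notes the build was hg38. What aligned and counted the reads, and on which annotation, is not given in the sources used here. Deposited by the authors were whole-number counts of exon and intron reads per gene, per the file headers, with TPM, a level per exon length. The deposited RPKM entered no comparison. PCR copies cannot be told from molecules, so intervals cover counting error only, and strand use in counting is not stated.

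Exon counts were scaled by TMM in edgeR 4.0.16 (R 4.3.3), after filterByExpr (15273 genes kept), with a prior count of 2 for log2 values. Members and lists were chosen with earlier results of these data known. Genes were named by position, level, extreme ratios (mean of at least 500 reads), steadiness and role list. All member IDs were in GENCODE 29, with the same start and end for 201 of 205. DESeq2 1.42.0 was the other tool. The culture fit and the block median were tested on simulated data. Simulated log2 shifts of 0, -0.3 and -0.75 came back as block medians of -0.04, -0.29 and -0.73. In its own simulation the culture fit recovered 76% of 2-fold changes at a dispersion (spread beyond counting error) of 0.02. At a dispersion of 0.1 it recovered 3% of 2-fold and 53% of 4-fold changes. The common dispersion fitted to the data was 0.233, which was not simulated. Alternatives were other scalings, read minima, kinds of reads, summaries and block starts. The added comparisons with other autosomes and pooled low rows were chosen after seeing the data. An abundant member that the naming rule picks is not reported here.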

Additional observations from a re-analysis of the deposited data

Results flagged for a closer look

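The block median of spheroid over adherent cells was -0.391 on the log2 scale in H1993 as labelled and 0.005 in A549, where 102 of 205 members were below 0. It was picked out because the signs differ, but the A549 value is close to 0 and shows no direction. Each line has 1 library per culture, and the difference was not tested. The library labelled H1993 adherent resembles adherent A549 more than H1993 spheroids, and its part in the H1993 value was not tested.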

How the results depend on the processing

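The difference between the block median and that of the rest of chromosome 15 was recomputed under 13 alternatives per pair. On the log2 scale it was -0.32 between the adherent libraries (range -0.39 to -0.26), -0.65 for H1993 spheroids over A549 adherent cells (-0.76 to -0.51), -0.58 between the spheroid libraries (-0.79 to -0.36), -0.36 in the H1993 pair (-0.47 to -0.24) and 0.03 in the A549 pair (-0.16 to 0.07). The 3 pairs with H1993 spheroids and the adherent pair stayed below 0 in these alternatives. Values that moved by more than 0.5 of the width of the 95% binomial interval of the block median, which reflects the spread between genes, were as follows. With at least 500 reads the values were -0.39 (adherent pair), -0.49 (spheroid pair) and -0.24 (H1993 pair). A start 5 Mb towards the centromere gave -0.26 in the adherent pair, and a start 5 Mb towards the telomere gave -0.26, -0.51 (H1993 spheroids over A549 adherent cells), -0.38 (spheroid pair) and -0.24 (H1993 pair). Without genes 2-fold apart in the A549 pair, H1993 spheroids over A549 adherent cells gave -0.76. Intron reads gave -0.36 (spheroid pair) and -0.16 (A549 pair). Against the other autosomes the values were -0.79 (spheroid pair) and -0.47 (H1993 pair). A mean in place of the median gave -0.0802 in the A549 pair. Pooled rows under 100 reads in at least 1 library, at -0.26 between the adherent libraries, gave -0.21 by library size alone. Other pools set beside them gave -0.15 for rows under 100 reads in every library and -0.19 for intron reads of the members. For culture, edgeR called 0 members, DESeq2 6 and edgeR without a filter on low counts 3. The cause of these moves was not tested. No paired analysis was possible because each group has 1 library, so replicate numbers pair nothing within it. The culture fit holds line as a term, which sets the cultures of each line side by side. With 1 library per group the counting intervals cover no spread between cultures.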
